A study of Mus musculus with 4 samples.

Results

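The genes described here are 8 components of signalling from the B-cell antigen receptor: Cd79a, Cd79b, Syk, Lyn, Btk, Blnk, Plcg2 and Blk. They were taken by symbol from 32285 genes in the feature lists, all 8 were present in both expression libraries, and all 8 passed the filter on low values in every comparison. Their levels were followed over peritoneal B cells grouped by the V gene of the heavy chain (IGHV11-2, IGHV12-3 or another) and, within the other V genes, by whether a unique molecular identifier (UMI, 1 counted transcript) of Fcer2a was detected. Fcer2a encodes CD23, a surface marker of follicular B-2 cells.

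The libraries came from CD45+ cells sorted out of peritoneal lavage of knockout (KO) and wild-type (WT) mice. Mice of both genotypes were kept on a high-fat diet from 4 weeks of age for 3 months, so there is no group on standard diet. Each genotype had 1 gene expression library and 1 B-cell receptor library, both made with 10x Genomics droplets, and the sources used here give neither the strain nor the number of mice behind a library. The spread between mice is therefore unknown, genotypes and groups were compared by their values alone without a test, and the intervals below cover counting error only.

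The receptor is a membrane antibody that cannot signal by itself and sits in the membrane with a CD79a and CD79b heterodimer. When antigen binds, the Src-family kinases LYN and BLK phosphorylate the tails of that heterodimer, the kinase SYK docks there, and the adaptor BLNK gathers the kinase BTK and the phospholipase PLCG2, which starts calcium release. Peritoneal B-1a cells, many of which carry antibody to phosphatidylcholine made from IGHV11-2 or IGHV12-3, are known for weak responses to receptor crosslinking compared with B-2 cells.

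The KO expression library held 22516 barcodes with a median of 3298 UMIs, against 10087 barcodes and 6362 UMIs in WT. After filtering, 9524 KO and 4948 WT barcodes carried exactly 1 heavy chain and were used as B cells. IGHV11-2 was carried by 473 KO and 448 WT barcodes, IGHV12-3 by 598 KO and 487 WT barcodes, another V gene without detected Fcer2a by 6254 KO and 2618 WT barcodes, and another V gene with Fcer2a by 2199 KO and 1395 WT barcodes. The median depth was 4246 UMIs in KO and 9165 in WT for IGHV11-2, and 2479 in KO and 4137 in WT for other V genes with Fcer2a. The libraries shared 293 barcode sequences. Because detection of Fcer2a needs a UMI, the group without it also holds cells in which the transcript was missed.

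The V groups were checked against subset markers. Bhlhe41, a B-1 transcription factor gene, was at 84.2 CPM (counts scaled to the same total of UMIs in each group) in KO and 83.9 CPM in WT for IGHV11-2, and at 89.8 CPM in KO and 84.1 CPM in WT for IGHV12-3, against 15.4 CPM in KO and 22.1 CPM in WT for other V genes with Fcer2a. Other V genes without Fcer2a lay between, with Bhlhe41 at 40.1 CPM in KO and 50 CPM in WT. The B-1 markers Cd5, Zbtb32, Cd9, Plscr1, Nfatc1, Ctla4 and Spn were also higher in both V groups than with Fcer2a, in both libraries. Itgam was not, as it was at 24.2 CPM for IGHV12-3 in WT, against 25.6 CPM with Fcer2a. Fcer2a was detected in 1.90% of KO and 6.47% of WT barcodes with IGHV11-2 and in 1.84% of KO and 3.08% of WT barcodes with IGHV12-3. The pan-B gene Ms4a1 lay between 930 and 1153 CPM in all 8 combinations of group and library.

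Most of the IGHV11-2 and IGHV12-3 barcodes belonged to clones, here barcodes of 1 library with the same V, J and heavy-chain CDR3 nucleotides. The light chain was not used, so such a clone need not descend from 1 cell. The CDR3 nucleotide sequences found in clones of at least 20 barcodes in each of the libraries are shown. They define cells in which the 8 genes were compared. Capitals mark the 21 bases at the 3′ end that all of them share, within the part encoded by the J segment IGHJ1.
IGHV11-2, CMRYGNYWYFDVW: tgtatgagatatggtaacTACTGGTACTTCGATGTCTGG
IGHV11-2, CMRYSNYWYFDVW: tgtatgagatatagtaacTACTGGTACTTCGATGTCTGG
IGHV12-3, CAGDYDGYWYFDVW: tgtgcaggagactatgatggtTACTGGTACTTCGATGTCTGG
The IGHV11-2 clones differ by the substitution G13A, counted from the first base of the CDR3, which gives the residue change G5S. The first of them held 169 barcodes in KO and 169 in WT, the other 119 in KO and 150 in WT, and the IGHV12-3 clone 111 in KO and 56 in WT. Barcodes in clones of at least 2 made up 97.7% of KO and 95.5% of WT barcodes with IGHV11-2, 92.1% of KO and 80.9% of WT barcodes with IGHV12-3, and 26.5% of KO and 2.80% of WT barcodes of other V genes with Fcer2a. Where other V genes came without Fcer2a, the share was 52.9% in KO and 17.3% in WT, and whether some KO cells were counted under more than 1 barcode was not settled from the files, so KO barcode counts and small clones are uncertain.

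None of the 8 genes was past 1.5-fold between KO and WT in any group. Cd79a, which encodes a signalling chain of the receptor, was at 3973 CPM in KO and 3148 CPM in WT for IGHV11-2, at 4114 CPM in KO and 3067 CPM in WT for IGHV12-3, at 4231 CPM in KO and 3712 CPM in WT for other V genes without Fcer2a, and at 4294 CPM in KO and 4017 CPM in WT for other V genes with Fcer2a. Each KO value was above its WT value, and in both libraries the IGHV11-2 and IGHV12-3 groups were the lowest. Cd79a was detected in nearly all barcodes of every group.

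Cd79b, the partner chain, was at 1930 CPM in KO and 1630 CPM in WT for IGHV11-2, and at 2048 CPM in KO and 1636 CPM in WT for IGHV12-3. For other V genes it was at 1959 CPM in KO and 1863 CPM in WT without Fcer2a, and at 1728 CPM in KO and 1754 CPM in WT with Fcer2a. The order of the groups therefore differed between the libraries: other V genes with Fcer2a were lowest in KO, whereas the IGHV11-2 and IGHV12-3 groups were lowest in WT, where they did not differ from each other beyond their counting intervals.

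Among the Src-family kinases, Blk had its highest value in the IGHV12-3 group of both libraries. Blk, whose product is found mainly in B cells, was at 248 CPM in KO and 251 CPM in WT for IGHV11-2, at 266 CPM in KO and 290 CPM in WT for IGHV12-3, at 203 CPM in KO and 237 CPM in WT for other V genes without Fcer2a, and at 190 CPM in KO and 199 CPM in WT for other V genes with Fcer2a. Both libraries gave the same order, with IGHV12-3 first and other V genes with Fcer2a last. Its neighbours IGHV11-2 and IGHV12-3 in KO, at 229 to 269 and 248 to 285 CPM, and the pair of other V groups in KO, at 197 to 210 and 179 to 201 CPM, had overlapping intervals, as had IGHV11-2 and other V genes without Fcer2a in WT.

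Lyn, which both starts and restrains receptor signalling, was at 329 CPM in KO and 310 CPM in WT for IGHV11-2, and at 336 CPM in KO and 281 CPM in WT for IGHV12-3. For other V genes it was at 328 CPM in KO and 355 CPM in WT without Fcer2a, and at 318 CPM in KO and 345 CPM in WT with Fcer2a. In KO the intervals of all 4 groups overlapped, whereas in WT the IGHV12-3 group was lowest, with an interval that overlapped that of IGHV11-2.

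Syk, the kinase that docks on the phosphorylated heterodimer, was at 287 CPM in KO and 256 CPM in WT for IGHV11-2, and at 260 CPM in KO and 233 CPM in WT for IGHV12-3. Without Fcer2a the other V genes had 316 CPM in KO and 309 CPM in WT, and with Fcer2a 309 CPM in KO and 302 CPM in WT. The IGHV12-3 group was lowest in both libraries, with an interval that overlapped that of IGHV11-2, and the pair of other V groups could not be told apart in either.

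Blnk, the adaptor, ran opposite to Blk. It was at 223 CPM in KO and 197 CPM in WT for IGHV11-2, at 177 CPM in KO and 167 CPM in WT for IGHV12-3, at 235 CPM in KO and 235 CPM in WT for other V genes without Fcer2a, and at 263 CPM in KO and 256 CPM in WT for other V genes with Fcer2a. The order was the same in both libraries, with IGHV12-3 last. In WT no neighbouring groups had overlapping intervals, and in KO those of IGHV11-2 and of other V genes without Fcer2a overlapped.

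Btk and Plcg2 encode the kinase and the phospholipase that BLNK brings together. Btk was at 78.8 CPM in KO and 67.5 CPM in WT for IGHV11-2, at 79.3 CPM in KO and 65.1 CPM in WT for IGHV12-3, at 88.2 CPM in KO and 76.3 CPM in WT for other V genes without Fcer2a, and at 102 CPM in KO and 83.8 CPM in WT for other V genes with Fcer2a. The KO value was above the WT value in every group. Plcg2 was at 96.6 CPM in KO and 85.3 CPM in WT for IGHV11-2, at 82.8 CPM in KO and 77.7 CPM in WT for IGHV12-3, at 82.7 CPM in KO and 91.5 CPM in WT for other V genes without Fcer2a, and at 90.7 CPM in KO and 92.8 CPM in WT for other V genes with Fcer2a. For Plcg2 the intervals of all 4 groups overlapped in KO, and it had no order that the libraries shared.

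**Figure D1:**
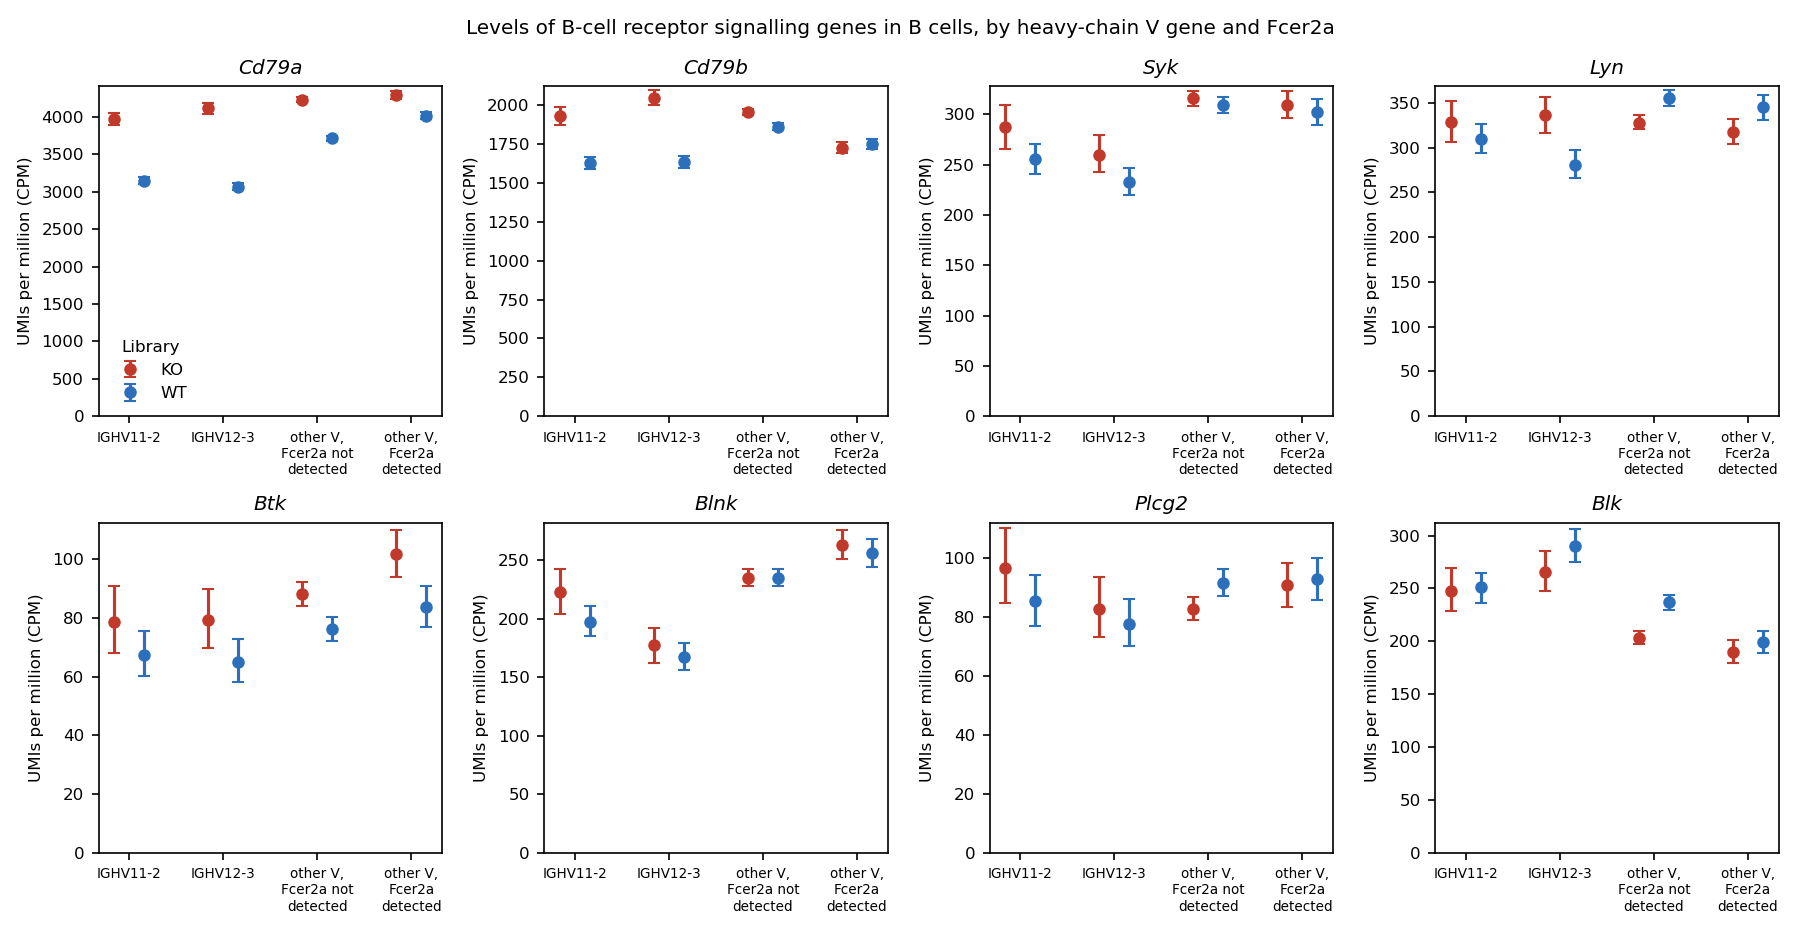
Level of each of the 8 genes in CPM (y axis from 0) in 4 groups of B cells, with KO in red left of WT in blue and bars for the exact 95% Poisson interval of the count. Blk is highest and Blnk lowest in the IGHV12-3 group of both libraries (266 and 177 CPM in KO, 290 and 167 CPM in WT).

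The genotypes were compared within each group, to ask whether the receptor machinery differed between KO and WT B cells of a like V gene. A gene was called when its ratio of CPM was past 1.5 in either direction, among genes with a mean of at least 10 CPM in the groups compared. For IGHV11-2, 5.13% of 7016 genes were called and none of the 8, and for IGHV12-3, 5.62% of 7081 genes and none of the 8. In the larger groups of other V genes 1.87% of 7336 genes without Fcer2a and 2.62% of 7471 genes with Fcer2a were called, again with none of the 8 among them.

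Cd79a had the largest KO to WT ratio of the 8 in the V groups of B-1a cells. Its ratio was 1.26 (95% interval 1.23 to 1.3) for IGHV11-2 and 1.34 (1.31 to 1.37) for IGHV12-3, and 1.14 and 1.07 for other V genes without and with Fcer2a. That of Cd79b was 1.18 (1.14 to 1.23) for IGHV11-2 and had an interval of 1.21 to 1.29 for IGHV12-3, but was 0.986 (0.960 to 1.01) for other V genes with Fcer2a, an interval that holds 1. Read against all genes, the Cd79a ratio lay above those of 90.5% and 95.3% of genes in the IGHV11-2 and IGHV12-3 groups. Across the alternative settings it stayed between 1.19 and 1.43 for IGHV11-2 and between 1.26 and 1.44 for IGHV12-3.

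Transcripts of the heterodimer were also found in barcodes of other cells, and whether they came from free RNA or from remaining doublets was not tested. T-like barcodes without a BCR contig had Cd79a at 136 CPM in KO and 38.8 CPM in WT, and 22.5% of KO and 8.66% of WT barcodes there had a UMI of it, at median depths of 2107 and 4093 UMIs. The level outside B cells was thus higher in KO, as was the level in B cells, and its part in the ratios was not tested.

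Cd79a, Syk and Btk had a ratio above 1 in every group. That of Btk was 1.17 (0.969 to 1.40) for IGHV11-2, 1.22 (1.03 to 1.44) for IGHV12-3, 1.16 (1.08 to 1.24) for other V genes without Fcer2a and 1.21 (1.08 to 1.36) with it. With 1 barcode per clone, the deepest of each, 128 KO and 171 WT barcodes remained for IGHV12-3. The ratio of Btk for IGHV12-3 was then 0.845. After thinning every barcode to 1000 UMIs it was 2.25, from 0.116 UMIs per barcode in KO and 0.0518 in WT. Blk alone had a ratio under 1 in all 4 groups, at 0.990, 0.916, 0.859 and 0.954 in the same order of groups, with intervals clear of 1 for IGHV12-3 (0.839 to 0.998) and for other V genes without Fcer2a (0.823 to 0.897). Lyn lay on different sides of 1, with 1.20 (1.10 to 1.30) for IGHV12-3, against 0.924 (0.893 to 0.956) and 0.921 (0.868 to 0.978) for other V genes without and with Fcer2a. Syk, Blnk and Plcg2 lay between 0.903 and 1.13 in all groups. Of the 8 genes, 7 had a ratio above 1 for IGHV11-2, 7 for IGHV12-3 and 4 in either group of other V genes. Their median log2 ratio was 0.18, 0.21, 0.02 and 0.01 in the 4 groups, beside 0.01, -0.03, 0.01 and -0.01 over all genes.

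**Figure D2:**
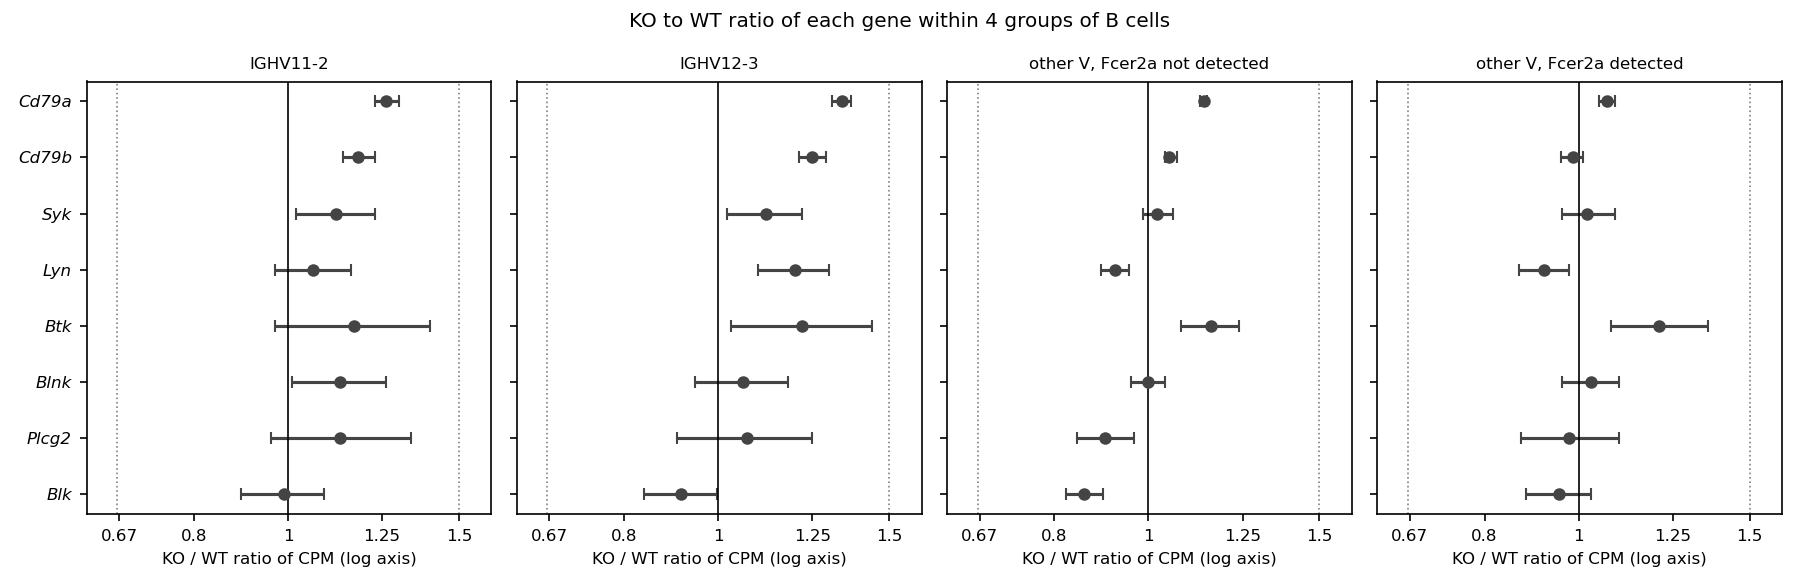
Ratio of CPM in KO to CPM in WT (x axis, log scale) for the 8 genes in 4 groups of B cells, with exact 95% intervals that cover counting error and dotted lines at 1.5-fold in either direction. No point passes a dotted line, and Cd79a is at 1.26 for IGHV11-2 and 1.34 for IGHV12-3.

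Within each library, the IGHV11-2, IGHV12-3 and Fcer2a-negative groups were set against other V genes with Fcer2a, the group closest to B-2 cells. The 3 comparisons of a library share these barcodes. Many genes differed: 20.5% of 7311 genes in KO and 19.0% of 7346 in WT were called for IGHV11-2, and 23.7% of 7321 in KO and 20.5% of 7417 in WT for IGHV12-3, most of them lower, with a median log2 ratio of all genes between -0.14 and -0.18. Of the 8 receptor genes 0 were called in either library for IGHV11-2, and for IGHV12-3 0 in KO and 1 in WT, which was Blnk. Other V genes without Fcer2a had 6.42% of 7418 genes called in KO and 7.73% of 7436 in WT, and 0 of the 8.

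Blk was the gene of the 8 with the highest ratio in both V groups. In KO the ratio was 1.31 (1.18 to 1.44) for IGHV11-2 and 1.40 (1.28 to 1.53) for IGHV12-3, and in WT 1.26 (1.16 to 1.36) and 1.46 (1.35 to 1.57) for the same groups, above those of 90.5% to 93.3% of all genes. Other V genes without Fcer2a were at 1.07 (1.0 to 1.14) in KO and 1.19 (1.12 to 1.26) in WT. After thinning, with Fcer2a detection taken on the thinned counts, the KO ratio for IGHV11-2 was 1.01, from 0.205 UMIs per barcode, against 0.204 in other V genes with Fcer2a, while IGHV12-3 gave 1.21 in KO and 1.78 in WT, and IGHV11-2 gave 1.35 in WT.

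Blnk had the lowest ratio of the 8 for IGHV12-3, at 0.671 (0.608 to 0.739) in KO and 0.654 (0.601 to 0.711) in WT, on either side of the limit of 1.5-fold. For IGHV11-2 it was at 0.845 (0.766 to 0.932) in KO and 0.771 (0.711 to 0.836) in WT. The alternatives moved the IGHV12-3 ratio between 0.653 and 0.689 in KO and between 0.613 and 0.820 in WT. Btk was also below 1 in both V groups of both libraries, between 0.774 and 0.805, and so was Syk, between 0.772 and 0.927.

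The ratios of the heterodimer genes differed between the libraries here. Cd79a was below 1 in both. In WT it was at 0.784 (0.768 to 0.799) for IGHV11-2 and 0.763 (0.748 to 0.779) for IGHV12-3. In KO it was at 0.925 (0.904 to 0.947) and 0.958 (0.938 to 0.978) for the same groups. For Cd79b the KO ratios were 1.12 (1.08 to 1.16) for IGHV11-2 and 1.19 (1.15 to 1.22) for IGHV12-3, and the WT ratios 0.929 (0.903 to 0.957) and 0.933 (0.907 to 0.960), so that they lay on opposite sides of 1. Relative to the lower median of all genes, 6 of the 8 were above it in KO and 4 in WT for IGHV11-2, and 5 in KO and 2 in WT for IGHV12-3. The rare IGHV11-2 and IGHV12-3 barcodes with Fcer2a, 9 and 11 in KO and 29 and 15 in WT, were too few to order.

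**Figure D3:**
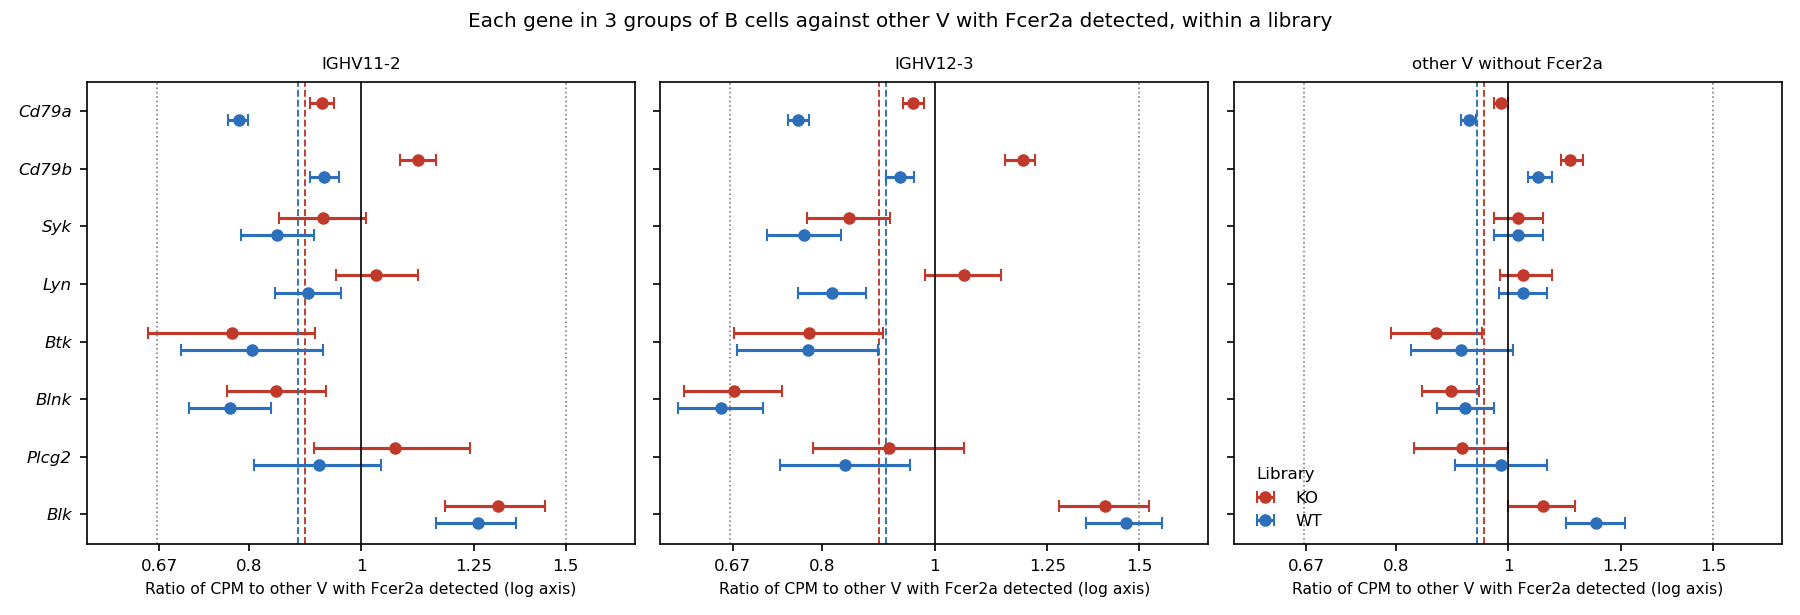
Ratio of CPM in 3 groups of B cells to CPM in other V genes with Fcer2a (x axis, log scale), with KO in red above WT in blue, exact 95% intervals, dotted lines at 1.5-fold and dashed lines at the median ratio of all genes in each library. Blk lies right of 1 for both V groups and Blnk left of 1, with 0.671 in KO and 0.654 in WT for IGHV12-3.

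Single clones were then compared, since barcodes of 1 clone may not be independent. In the IGHV11-2 clone with residue G, Blk was at 254 CPM (224 to 288) in KO and 259 CPM (236 to 284) in WT, and in the clone with residue S it was at 282 CPM (241 to 327) in KO and 240 CPM (216 to 266) in WT. The IGHV12-3 clone shown above had Blk at 230 CPM (194 to 270) in KO and 318 CPM (274 to 367) in WT, with intervals that did not overlap. Blnk in that clone was at 166 CPM (136 to 201) in KO and 170 CPM (138 to 207) in WT, and in the IGHV11-2 clones between 204 and 230 CPM in both libraries.

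The other large clones had few UMIs of each gene, so the spread of their values includes counting error. Over 6 IGHV12-3 clones of KO, Blnk ran between 144 and 269 CPM with a median of 177 CPM, and Blk between 212 and 278 CPM with a median of 232 CPM. Over 5 IGHV11-2 clones of KO, Blk ran between 190 and 282 CPM with a median of 203 CPM, the level of other V genes without Fcer2a in KO. Only the 2 largest of them, which also had at least 20 barcodes in WT, had a value above that level. Whether the smaller ones occur in WT with fewer barcodes was not examined. The intervals of the smaller clones, 122 to 283, 124 to 314 and 125 to 308 CPM, overlapped those of the 2 largest. In the same 5 clones Blnk was between 190 and 284 CPM, with overlapping intervals. Lyn there was between 163 CPM (92.9 to 264, from 16 UMIs) and 422 CPM (306 to 566, from 44 UMIs). A KO clone with IGHV7-1 and 22 barcodes had the lowest Blk of the large clones, 85.5 CPM (36.9 to 169), from 8 UMIs. Its Cd79b was at 2940 CPM.

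**Figure D4:**
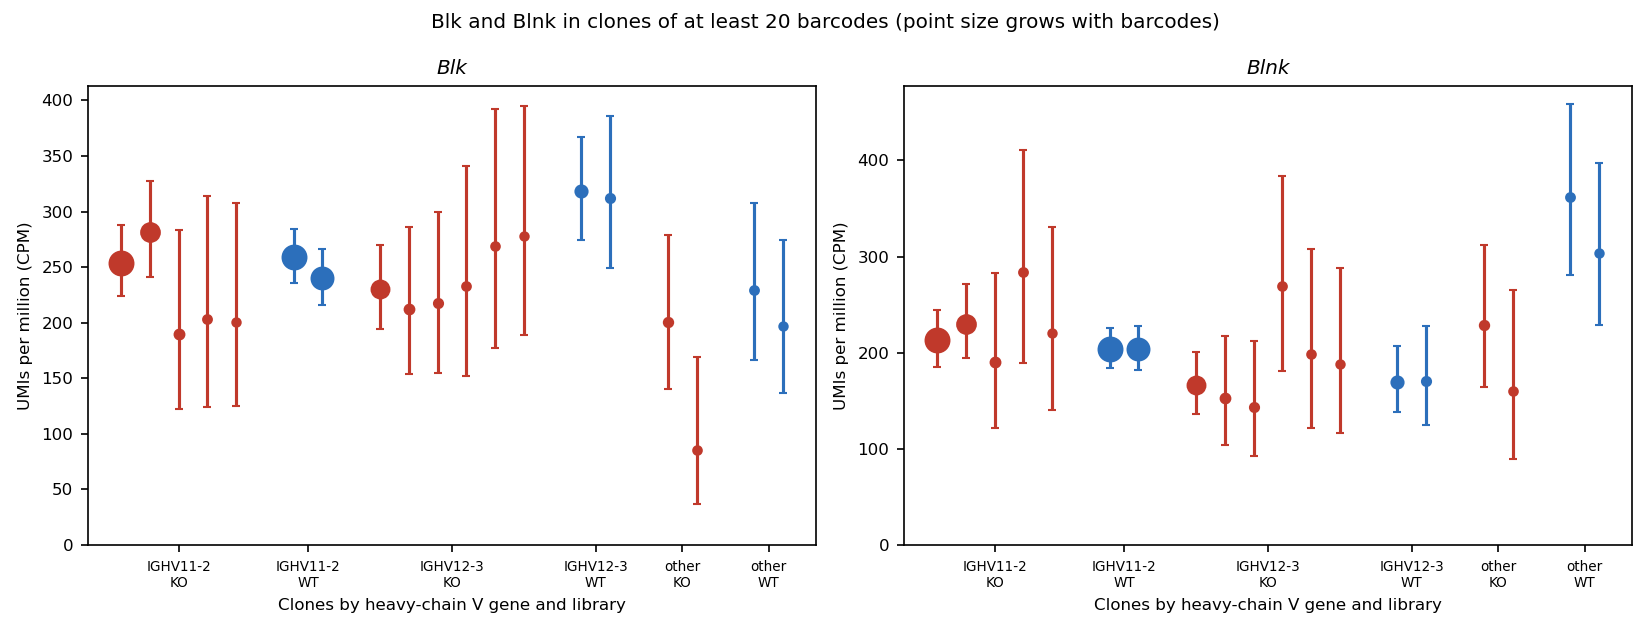
CPM of Blk and Blnk in each clone of at least 20 barcodes, ordered by barcodes within a V gene, with KO in red left of WT in blue and exact 95% Poisson intervals. Over the 5 IGHV11-2 clones of KO, Blk runs between 190 and 282 CPM, and both WT clones with IGHV12-3 have Blnk at about 170 CPM.

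Isotype and light chain were used to split the groups of other V genes. Without Fcer2a, barcodes with an IGHD constant gene had Cd79b at 1404 CPM in KO and 1539 CPM in WT, whereas those with IGHM had 1978 CPM in KO and 1875 CPM in WT. Barcodes with IGHA or IGHG also had less Cd79b, 1511 CPM in KO and 1323 CPM in WT. Cd79a was at 3792 CPM in KO and 3750 CPM in WT with IGHD, beside 4249 CPM in KO and 3712 CPM in WT with IGHM. By light chain, Cd79b was at 2115 CPM in KO and 1919 CPM in WT with lambda, and at 1934 CPM in KO and 1856 CPM in WT with kappa, with intervals apart in KO. The IGHD barcodes were few, 193 in KO and 40 in WT. Cd79a was detected in 96.4% of them in KO and 92.5% in WT, against 99.2% and 99.5% with IGHM. Depth was not equalised between isotypes. With Fcer2a the intervals overlapped: Cd79b was at 1681 CPM in KO and 1690 CPM in WT with IGHD, and at 1733 CPM in KO and 1759 CPM in WT with IGHM. There lambda barcodes had 1819 CPM in KO and 1722 CPM in WT, and kappa barcodes 1718 CPM in KO and 1757 CPM in WT.

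Detection per barcode was compared before and after equalising depth. Blk had a UMI in 62.2% of KO and 85.7% of WT barcodes with IGHV11-2, and Plcg2 in 35.3% of KO and 52.2% of WT barcodes of that group. After thinning to 1000 UMIs the libraries came close: a barcode with IGHV11-2 had on average 2.87 of the 8 genes in KO and 2.79 in WT, one with IGHV12-3 2.86 in KO and 2.76 in WT, and one of other V genes with Fcer2a 2.95 in KO and 2.97 in WT. A UMI of both Cd79a and Cd79b was seen in 79.3% of KO and 75.7% of WT thinned barcodes with IGHV11-2, and in 83.8% of KO and 73.3% of WT barcodes with IGHV12-3.

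A list of 63 other genes of the pathway, of which 57 to 61 reached the expression limit, gave the setting for the 8. Between KO and WT, 3 genes were past 1.5-fold higher and 1 lower for IGHV11-2, 2 higher and 4 lower for IGHV12-3, 0 higher and 1 lower for other V genes without Fcer2a, and 0 either way with Fcer2a. These are 7.02% of the measured list for IGHV11-2 and 10.3% for IGHV12-3, beside 5.13% and 5.62% of all genes, and 1.64% of the list for other V genes without Fcer2a, beside 1.87% of all genes. Inhibitory receptor genes were among them: Cd22 was at 71.8 CPM in KO and 43.8 CPM in WT for IGHV11-2 (ratio 1.64, 1.33 to 2.02), Cd72 at 16.2 CPM in KO and 9.64 CPM in WT (1.68, 1.06 to 2.64), and Fcgr2b at 101 CPM in KO and 59.7 CPM in WT for IGHV12-3 (1.70, 1.44 to 2.0). The ratio of Cd22 was 1.02 after thinning. With 1 barcode per clone, the Fcgr2b ratio was 1.44 and so not past 1.5-fold. Fgr, a Src-family kinase gene, had a ratio of 1.63 for IGHV11-2. It was 1.03 with 1 barcode per clone and 4.74 after thinning, from 10.6 CPM in KO and 2.23 CPM in WT.

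Cd5, which encodes an inhibitory surface receptor of B-1a and T cells, was at 21.6 CPM in KO and 37.9 CPM in WT for IGHV11-2, 27.3 CPM in KO and 43.4 CPM in WT for IGHV12-3, and 13.2 CPM in KO and 21.5 CPM in WT for other V genes without Fcer2a. Lck, a Src-family kinase gene best known from T cells, was at 19.7 CPM in KO and 44.5 CPM in WT for IGHV12-3, and Pag1, an adaptor that recruits the inhibitory kinase CSK, was at 11.1 CPM in KO and 18.2 CPM in WT. Markers of other cells also differed. The summed level of the 3 T-cell markers Cd3d, Cd3e and Cd3g was 55.9 CPM in KO and 83.8 CPM in WT for IGHV11-2, and 69.2 CPM in KO and 143 CPM in WT for IGHV12-3. That of all 7 markers of T, NK and myeloid cells was 110 CPM in KO and 450 CPM in WT for IGHV11-2, and 341 CPM in KO and 410 CPM in WT for IGHV12-3. For other V genes without Fcer2a the T-cell markers summed to 63.5 CPM in KO and 75.5 CPM in WT, and all 7 ran the other way, with 473 CPM in KO and 362 CPM in WT. None of the T-cell markers was at 0, while Ncr1 was at 0 in both libraries for IGHV11-2 and C1qa in WT for IGHV12-3. Without barcodes that held 2 or more UMIs of T, NK or myeloid markers, the IGHV12-3 ratio of Cd5 turned to 1.20 and that of Lck was 0.698, while the Cd5 ratio for other V genes without Fcer2a stayed at 0.628. For IGHV11-2 the Cd5 ratio was 0.757 without those barcodes and 0.766 with no doublets removed, against 0.569, so it was no longer past 1.5-fold, and that of Pag1 for IGHV12-3 was 0.723 and 0.825, against 0.611. With no doublets removed, the ratio of Lck was 0.951, and that of Cd5 was 0.866 for IGHV12-3 and 0.971 for other V genes without Fcer2a.

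More of the list was past 1.5-fold against other V genes with Fcer2a. For IGHV11-2, 6 genes were past 1.5-fold higher and 12 lower in KO, and 3 higher and 17 lower in WT. For IGHV12-3, 7 were higher and 17 lower in KO, and 5 higher and 17 lower in WT. That is 29.5% and 32.8% of the list for IGHV11-2 and 39.3% and 36.1% for IGHV12-3 in KO and WT, beside the shares of all genes given above. Other V genes without Fcer2a had 4 higher and 5 lower in KO and 2 higher and 6 lower in WT, which is 14.8% of the list in KO and 13.1% in WT, beside 6.42% and 7.73% of all genes.

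Rasgrp3, Cr2 and Pag1 were among the 4 largest ratios in all 6 comparisons, each time lower. Rasgrp3, which couples diacylglycerol to RAS downstream of PLCG2, was at 2.49 CPM in KO and 0.658 CPM in WT for IGHV11-2, against 53.3 CPM in KO and 49.3 CPM in WT for other V genes with Fcer2a (ratios 0.0467, 0.0170 to 0.103, and 0.0133, 0.00274 to 0.0393). Cr2, which encodes a complement receptor, was at 1.90 CPM in KO and 2.71 CPM in WT for IGHV12-3, against 86.2 CPM in KO and 74.6 CPM in WT. Cd72 and Pag1 were at 0.137 and 0.159 of the Fcer2a group in KO IGHV11-2 barcodes, and Sh3bp2, an adaptor gene, at 0.309 in WT IGHV12-3 barcodes. In other V genes without Fcer2a, Rasgrp3 was at 0.409 in KO and 0.296 in WT, and Cr2 at 0.294 in KO and 0.230 in WT.

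Higher in the V groups, and named after their values were seen, were Ptpn22, which encodes a phosphatase that acts on Src-family kinases, and Dok3, an inhibitory adaptor gene. Ptpn22 was at 127 CPM in KO and 111 CPM in WT for IGHV11-2 and at 159 CPM in KO and 125 CPM in WT for IGHV12-3, against 41.7 CPM in KO and 45.5 CPM in WT with Fcer2a. Dok3 was at 303 CPM in KO and 256 CPM in WT for IGHV12-3, against 132 CPM in KO and 138 CPM in WT. Negative regulators were thus found on both sides, with 3 higher and 4 lower of 17 measured in KO and 3 higher and 6 lower in WT for IGHV11-2. That is 41.2% of the 17 in KO and 52.9% in WT, beside 20.5% and 19.0% of all genes. For IGHV12-3, 4 were higher and 5 lower in KO and 3 higher and 6 lower in WT. There the share was 52.9% in either library, beside 23.7% of all genes in KO and 20.5% in WT. The list was chosen with earlier results of these data known, so these shares are no test.

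Outside B cells the 8 genes separated into those kept by B cells and those shared. Barcodes without a BCR contig were used, grouped by cluster. In T-like clusters Syk was at 17.6 CPM in KO and 2.48 CPM in WT, Lyn at 18.6 CPM in KO and 5.54 CPM in WT, and Blnk at 7.72 CPM in KO and 3.44 CPM in WT. The NK-like cluster had Lyn at 115 CPM in KO and 98.6 CPM in WT, Syk at 71.0 CPM in KO and 60.8 CPM in WT and Plcg2 at 40.1 CPM in KO and 48.5 CPM in WT, above the T-like clusters, with Btk and Blnk at 10.0 CPM or less in either library. Cluster 9, an unnamed cluster led by Cd209a, Mgl2 and Il1b, had Syk at 246 CPM in KO and 268 CPM in WT and Lyn at 304 CPM in KO and 295 CPM in WT, levels of the B-cell range, with Btk at 44.2 CPM in KO and 40.9 CPM in WT but Blnk at 23.0 CPM in KO and 52.9 CPM in WT.

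Blk was the exception among T-like barcodes. The T-like cluster 15, led by Cd163l1, Tcrg-V6 and Il17a, had Blk at 400 CPM (356 to 449) in KO and 350 CPM (298 to 409) in WT, above all 8 B-cell values, and 55.9% of its KO and 65.4% of its WT barcodes had a UMI. Cd79a there was at 75.2 CPM in KO and 17.4 CPM in WT and Blnk at 2.73 CPM in KO and 0 CPM in WT, both below their B-cell levels. The larger T-like cluster 3 had Blk at 7.38 CPM in KO and 1.87 CPM in WT.

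**Figure D5:**
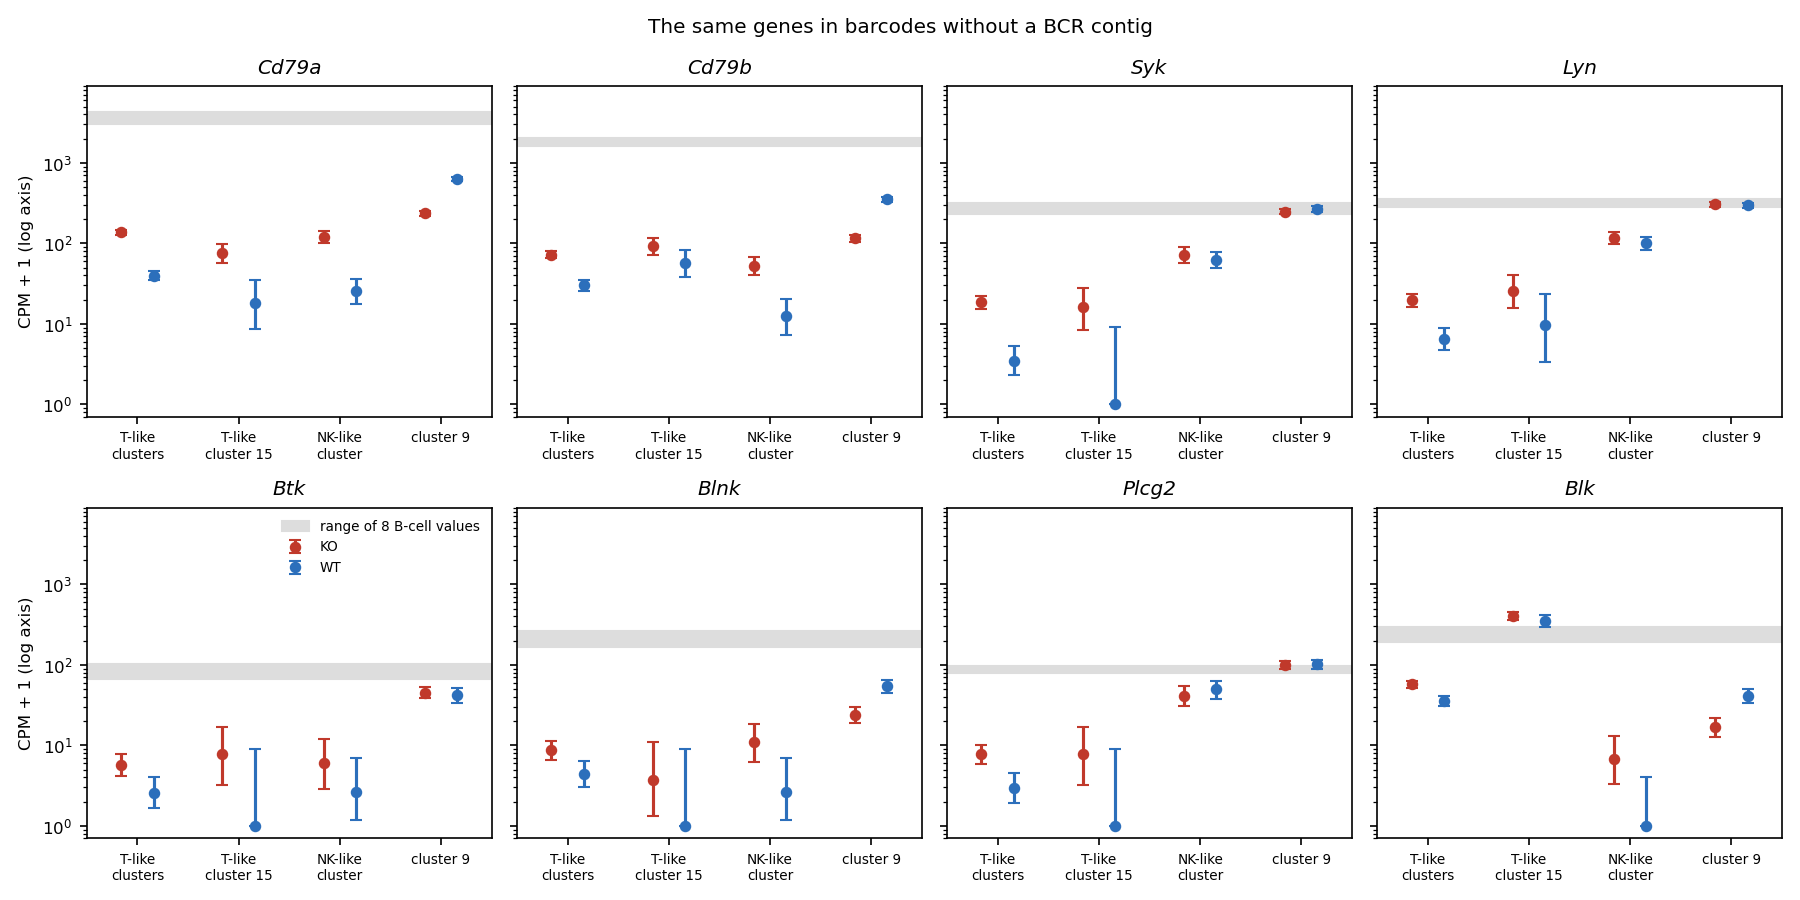
CPM + 1 (log y axis) of the 8 genes in barcodes without a BCR contig, with KO in red left of WT in blue, exact 95% Poisson intervals and a grey band for the range of the 8 B-cell values. T-like clusters, which include cluster 15, lie below the band for every gene, cluster 9 reaches or passes it for Syk, Lyn and Plcg2, and cluster 15 lies above it for Blk (400 CPM in KO, 350 CPM in WT).

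The genes most like each of the 8 were found by Pearson correlation of log2(CPM + 1), as a description over points that share libraries. Over 12 points, the 8 B-cell values and the T-like and NK-like values of both libraries, the closest of 2765 genes was H2-Aa for Cd79a (r = 1.0), Lyn for Syk (0.994), Ctsh for Cd79b (0.999), Ncf1 for Btk (0.997), Ly6d for Blnk (0.999) and Ly6a for Blk (0.985), and Plcg2 was nearest to Lyn (0.992). B cells and other cells stand far apart on these points. Over the 8 B-cell values alone, the closest of 2501 genes was Phgdh for Blk (0.989), Limd2 for Blnk (0.987), Arpc2 for Btk (0.988), Rasgrp2 for Syk (0.987), Ly6e for Cd79a (0.973), Acp5 for Cd79b (0.923), Dennd1c for Plcg2 (0.912) and Trim8 for Lyn (0.909). Each is the highest of many values over few points. No background was computed, so a high r shows nothing particular to a pair.

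Promoter sequence was available from RefSeq (build GRCm38.p6) for 5 of the 8 genes, Cd79a, Syk, Btk, Blnk and Plcg2, in 6 entries. The 250 bases before the gene start were searched on both strands for the octamer ATGCAAAT, bound by OCT factors, and for GAGGAA, the core bound by the ETS factor PU.1. The octamer was in 1.60% of 32851 promoters of that length and in that of Blnk, 130 bases before the start, and GAGGAA was in 23.3% of all promoters and in that of Cd79a and 1 of the Syk entries. Shown are Blnk, which had the lowest ratio of the 8 for IGHV12-3 against other V genes with Fcer2a, and Cd79a, which had the highest KO to WT ratio in the IGHV11-2 and IGHV12-3 groups, with the matches in capitals, both on the reverse strand.
Blnk, chr19:40994222-40994471, minus strand: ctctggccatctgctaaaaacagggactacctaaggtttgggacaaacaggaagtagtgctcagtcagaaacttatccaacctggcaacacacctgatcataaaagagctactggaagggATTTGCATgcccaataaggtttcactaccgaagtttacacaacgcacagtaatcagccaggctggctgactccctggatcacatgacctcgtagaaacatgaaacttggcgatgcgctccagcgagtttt
Cd79a, chr7:24897247-24897496, plus strand: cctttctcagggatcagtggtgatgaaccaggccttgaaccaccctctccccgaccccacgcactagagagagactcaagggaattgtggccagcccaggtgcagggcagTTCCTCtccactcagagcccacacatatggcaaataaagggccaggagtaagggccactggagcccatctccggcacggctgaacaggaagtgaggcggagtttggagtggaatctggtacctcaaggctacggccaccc
A match of letters is a description and says nothing about binding in these cells.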

How the data were processed

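The deposited expression files hold raw UMI counts per gene and barcode. Cell Ranger 6.1.2 made them per the file headers. Cell Ranger 6.0.1, Seurat 4.3.0 and mm39 stand in the submitters' processing notes, so version and annotation are uncertain. Per the labels' protocols a 3′ kit was used, although receptor libraries are usually made from 5′ ends, and which end was read was not settled. The deposited contig tables give V, J and constant gene and CDR3 per barcode. The targeted gene is not reported here. The 8 genes and the lists were chosen with earlier results of these data known.

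Kept barcodes had 200 genes or more and a mitochondrial share below 10%. Scrublet (scanpy 1.11.5) marked 0 doublets at its automatic threshold in either library and so had not worked. The highest scores were removed instead, up to 0.8% for every 1000 barcodes with ties kept (3933 barcodes in KO, 765 in WT). Barcodes with more than 1 heavy chain, 1685 in KO and 557 in WT, were left out. UMIs were summed per group and scaled to CPM of all UMIs. Poisson intervals belong to levels, conditional binomial intervals to ratios and Clopper-Pearson intervals to shares. Barcodes were clustered with leidenalg 0.10.2 (resolution 1, 2000 variable genes without the 8, 30 components) and named from marker lists. Cluster 13, with T and B genes, and cluster 14, with a median of 730 UMIs in KO and 1231.5 in WT, stayed unnamed. Named pathway genes are the 4 largest ratios past 1.5-fold per comparison. The calculation of ratios was checked on simulated Poisson counts, which hold counting error but no spread between mice, clones or cells.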

Additional observations from a re-analysis of the deposited data

Results flagged for a closer look

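Lyn was singled out because its KO to WT ratio lay on opposite sides of 1 in different groups with intervals clear of 1: 1.20 for IGHV12-3, against 0.924 for other V genes without Fcer2a and 0.921 for other V genes with it. Every alternative kept these sides, with the IGHV12-3 ratio between 1.02 and 1.20. Cd79b was singled out because its ratio to other V genes with Fcer2a lay above 1 in KO and below 1 in WT, at 1.12 in KO and 0.929 in WT for IGHV11-2 and at 1.19 in KO and 0.933 in WT for IGHV12-3. Neither difference between groups or libraries was tested, since there is 1 library per genotype, and the median depth of the barcodes differed between the libraries as given above.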

How the results depend on the processing

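Of 80 ratios of the 8 genes (10 comparisons), only Blnk for IGHV12-3 in WT was past 1.5-fold, and it stayed below 1 under 9 alternatives. Of the 80, 21 crossed 1 in at least 1 alternative, all of them ratios not past 1.5-fold. Thinning to 1000 UMIs moved 42 beyond their counting interval, 1 barcode per clone 23, weighting barcodes alike 14, leaving out barcodes with other-cell UMIs 9, Fcer2a at 2 UMIs 8 and no doublet removal 8. A mitochondrial limit of 20%, CPM outside immunoglobulin genes, and 1 heavy with 1 light chain moved 0. The number of the 8 past 1.5-fold was 0 in every comparison except IGHV12-3 in WT, where it was 1. With 1 barcode per clone it was 1 for KO against WT in IGHV11-2 (Btk, 1.52), 1 for IGHV12-3 in KO and 0 in WT. That setting kept the deepest barcode of each clone and left 37 KO and 43 WT barcodes with IGHV11-2. Thinning gave 1 for KO against WT in IGHV12-3, 1 for IGHV12-3 in KO and 2 in WT (Btk, 0.521, and Blk, 1.78). Fcer2a at 2 UMIs, weighting alike, paired light chains and leaving out other-cell UMIs each gave 1 for IGHV12-3 in KO, and weighting alike gave 0 in WT. The looser fold limit gave 1 and 2 for KO against WT in IGHV11-2 and IGHV12-3, and 2 and 3 in KO and 3 and 5 in WT for these groups against Fcer2a. Any gene passes a looser limit more readily. The share of all genes past it is not given here, so these counts show nothing particular to the 8. The cause of the changes between settings was not tested. The automatic doublet threshold equals no removal here and was not run apart. No paired analysis was possible because each genotype has 1 library. Of the 8, Btk and Plcg2 had the fewest UMIs, and depth limits them.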
